A study of Mus musculus with 48 samples.

Results

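The genes of collagen and laminin chains were described in the livers of 48 mice. A gene belonged to the set where its symbol named a collagen chain (Col, a number, a, a number) or a laminin chain (Lama, Lamb or Lamc and a number) and at least 10 reads were counted in at least 3 libraries. Of the 22354 genes in the table, 53 had such a symbol and 37 of these reached the count, 26 collagen chains and 11 laminin chains. Of the 37, 36 had enough counts to be tested. The exception was Lama3, the alpha chain of laminin-332, for which levels are given without a test.

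The livers came from female mice of strain C57BL/6J in 2 groups, 25 mice labelled WT and 23 labelled KO, where KO stands for a deletion of Bmal1 (gene symbol Arntl), the central activator of the circadian clock, in adipocytes. Collection ran every 4 h from ZT0 to ZT20, with 4 mice per genotype and time, apart from ZT16 with 5 WT and 3 KO mice. All mice of both groups lived under 12 h of light and 12 h of darkness with free access to food, then had 1 day of constant darkness and a fast of 24 h before they were killed, and they were 28.75 to 105 weeks old. The labels used here name neither the promoter nor the Cre line behind the adipocyte deletion, and they do not say whether WT mice carried floxed alleles. Each mouse gave 1 library, and the libraries held 12841969 to 13009797 counts besides those of albumin.

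Collagens are trimers of 3 alpha chains. The fibrillar types I, III and V build the fibres of portal tracts and of scar tissue, type IV forms the sheet-like network of basement membranes, type VI forms beaded filaments around cells, and the multiplexins XV and XVIII sit at basement membranes. Laminins are cross-shaped trimers of an alpha, a beta and a gamma chain and form the other basement membrane network. In a healthy liver most fibrillar and type VI collagen transcripts come from stellate cells and portal fibroblasts, type IV collagen and laminin transcripts come largely from endothelial, stellate and biliary cells, and type XVIII collagen is also made by hepatocytes. In bulk liver RNA, fewer cells of a type and less RNA per cell cannot be told apart.

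Stretches of 250 bases upstream of the annotated transcription start are shown for 3 members on which the results turn: Col13a1, the chain with the smallest rhythm p, Col27a1, the chain with an earlier evening peak, and Lamb2, the chain that fell in KO. They were taken from RefSeq promoters on build GRCm38.p6, which held 26 of the 37 members, and are written 5′ to 3′ on the strand of the gene. Capitals mark GC boxes (GGGCGG or its reverse complement) and CCAAT boxes. Col13a1 (chromosome 10, 61979109 to 61979358, minus strand), Col27a1 (chromosome 4, 63215162 to 63215411, plus strand) and Lamb2 (chromosome 9, 108479612 to 108479861, plus strand) read as follows.
Col13a1: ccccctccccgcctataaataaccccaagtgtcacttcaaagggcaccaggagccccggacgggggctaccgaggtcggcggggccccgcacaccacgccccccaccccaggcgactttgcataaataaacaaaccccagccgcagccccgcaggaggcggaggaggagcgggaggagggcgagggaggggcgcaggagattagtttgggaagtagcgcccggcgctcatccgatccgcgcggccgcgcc
Col27a1: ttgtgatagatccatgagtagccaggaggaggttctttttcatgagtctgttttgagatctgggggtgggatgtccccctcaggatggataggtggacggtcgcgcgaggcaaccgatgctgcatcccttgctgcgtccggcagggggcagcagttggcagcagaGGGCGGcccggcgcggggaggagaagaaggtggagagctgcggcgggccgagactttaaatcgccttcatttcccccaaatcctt
Lamb2: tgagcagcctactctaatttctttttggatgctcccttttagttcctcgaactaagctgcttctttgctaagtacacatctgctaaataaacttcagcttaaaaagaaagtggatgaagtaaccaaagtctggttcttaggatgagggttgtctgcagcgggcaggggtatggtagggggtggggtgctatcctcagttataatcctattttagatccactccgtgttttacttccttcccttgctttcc

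The motif bound by Bmal1 with Clock, the E-box CACGTG, was found on either strand in 0 of the 26 member promoters (250 bases upstream to 50 downstream of the start) and in 8.09% of all 27025 promoters of the table. The D-box was found in 0 of 26 and in 1.11% of all promoters. GC boxes were found in 16 of 26 (61.5%, against 38.2% of all) and CCAAT in 9 of 26 (34.6%, against 41.1% of all). These counts describe letters in a short window and no binding. Col4a1 and Col4a2, the chains of the common type IV collagen trimer, lie head to head on chromosome 8, and their annotated first exons share 22 bases (GRCm38.p6, 11312805 to 11312826, shown on the plus strand with its GC box in capitals).
Start shared by Col4a1 and Col4a2: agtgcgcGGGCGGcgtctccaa

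Levels ranged widely between the chains. Col18a1, whose C-terminal fragment is endostatin, was by far the most abundant per length, with 84.5 ± 55.7 CPM per kb (CPM, counts scaled to the size of the library, divided by the length of the exons, with the SD over 48 mice). It made up 47.8% to 86.3% of the summed per-length level of the 37 members in a library (median 63.5%). The next chains were Col14a1, a fibril-associated collagen (4.61 ± 1.73 CPM per kb), Col5a3, a minor fibrillar chain (3.63 ± 2.07), Col27a1, a fibrillar collagen best known from cartilage (3.33 ± 2.53), Lamb3, the beta chain of laminin-332 (2.59 ± 2.16), and Col4a1 (2.30 ± 0.999). The SDs of Col14a1, Col5a3, Col27a1, Lamb3 and Col4a1 overlap. These SDs describe the spread between mice, and the order of the chains within single mice was not tested. The highest chain of the other classes was Col6a1 for type VI (1.83 ± 0.892 CPM per kb), Lamc1 for laminin gamma (1.70 ± 0.515), Col13a1 for the transmembrane collagens (1.34 ± 0.585), Lama4 for laminin alpha (0.610 ± 0.184) and Col7a1, the anchoring fibril collagen (0.108 ± 0.0686). The lowest members were Col4a6 (0.0540 ± 0.0362), Col4a4 (0.0438 ± 0.0315) and Lama3 (0.0350 ± 0.0181 CPM per kb).

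**Figure D1:**
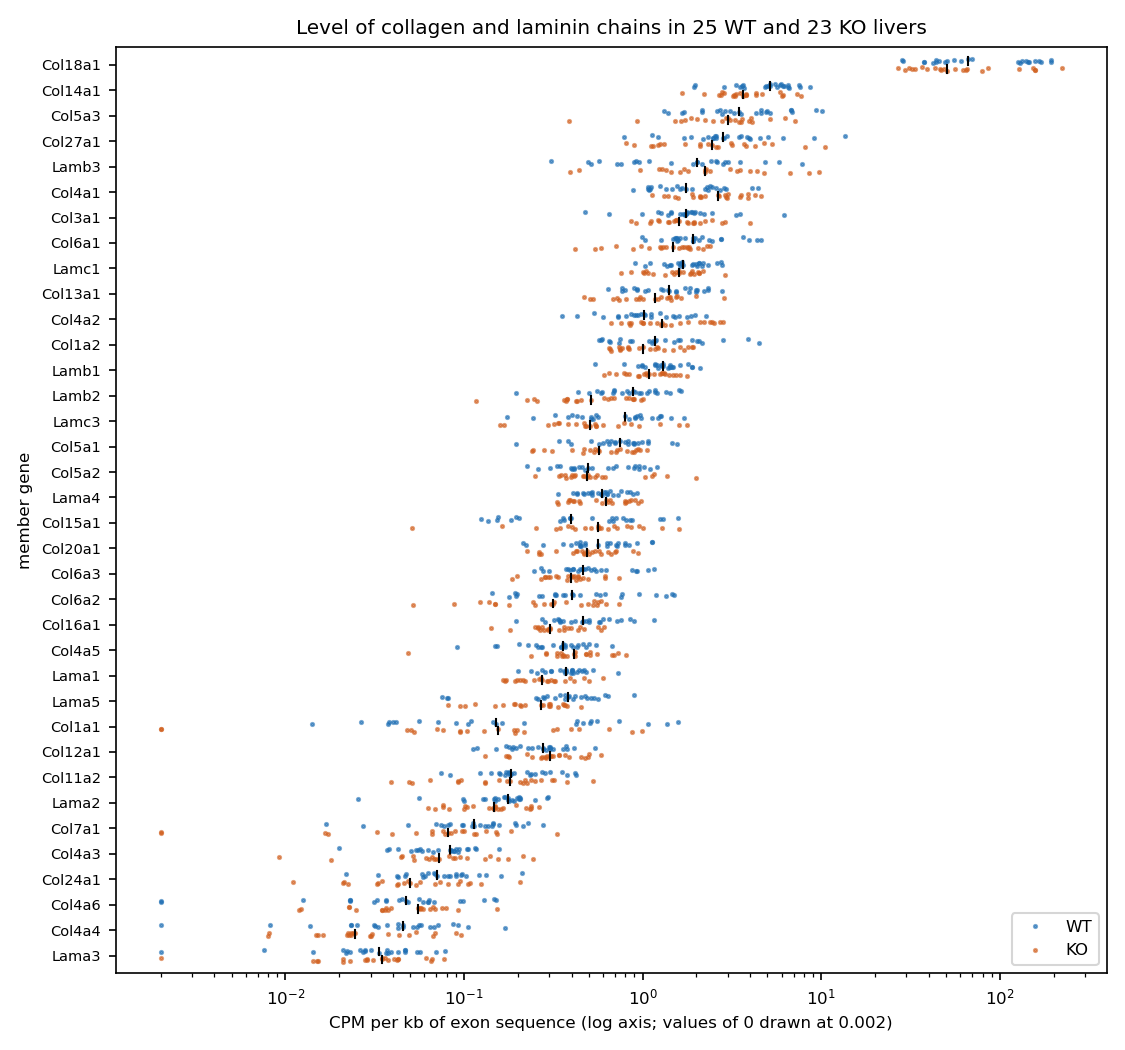
Level of the chains (all but 1 of the 37) in CPM per kb of exon sequence (log axis), with 1 point per mouse (blue, 25 WT; orange, 23 KO) and a black bar at the median of each genotype. Col18a1 lies apart at 84.5 CPM per kb on average, and the other chains run from 4.61 down to 0.0350.

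Col18a1 varied strongly between mice within a group. At ZT0 its 4 WT libraries held 1157.5, 449, 374 and 309 CPM and its 4 KO libraries 1075, 249, 1067 and 586. At ZT8 the 8 libraries ran from 195 to 414 CPM. Col18a1 was thus the most abundant chain and also one whose groups overlapped throughout. Fibrillar type I collagen was low: Col1a1 averaged 0.304 ± 0.360 CPM per kb, and 2 KO libraries held no read of it. Of the laminin alpha chains, Lama1 (0.343 ± 0.118) and Lama5 (0.323 ± 0.167 CPM per kb) were of like level, and their means lay below that of Lama4 (0.610 ± 0.184).

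The libraries also differed in how their counts followed the GC content of genes, and this moved with many of the chains. The GC slope of a library is the slope, across genes, of its log2 CPM against GC content, relative to the mean of all libraries. It ran from -0.80 to 0.61 log2 units per 10 points of GC, and it averaged 0.0888 in WT and -0.0966 in KO, and 0.187 at ZT0 against -0.244 at ZT8. The members are rich in GC (median 55.6%, against 49.7% for all tested genes). Over the 48 libraries the log2 level of Col18a1 rose with the slope (Pearson r = 0.91, Spearman rho = 0.92, adjusted p = 2.88e-05 for both over 72 coefficients, permutation test; r = 0.91 without the 2 libraries of most extreme slope). The level of Lamb2 did so too (r = 0.81, rho = 0.82, adjusted p = 2.88e-05 for both, permutation test; r = 0.79 without the 2). A raw p of 1e-05 was the smallest that the permutations could give. Of 36 chains, 28 had a positive r and 18 an r above 0.5, while Col4a3 (-0.36) and Col12a1 (-0.32) ran the other way. The shares of all genes with such an r were not counted. By the definition of the slope, a gene richer in GC than most tends to a positive r, so these counts show no trait particular to the chains. Fits with the slope as a covariate are given beside the counts and the chains on which the results turn, and the part of the slope in the other values was not tested.

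**Figure D2:**
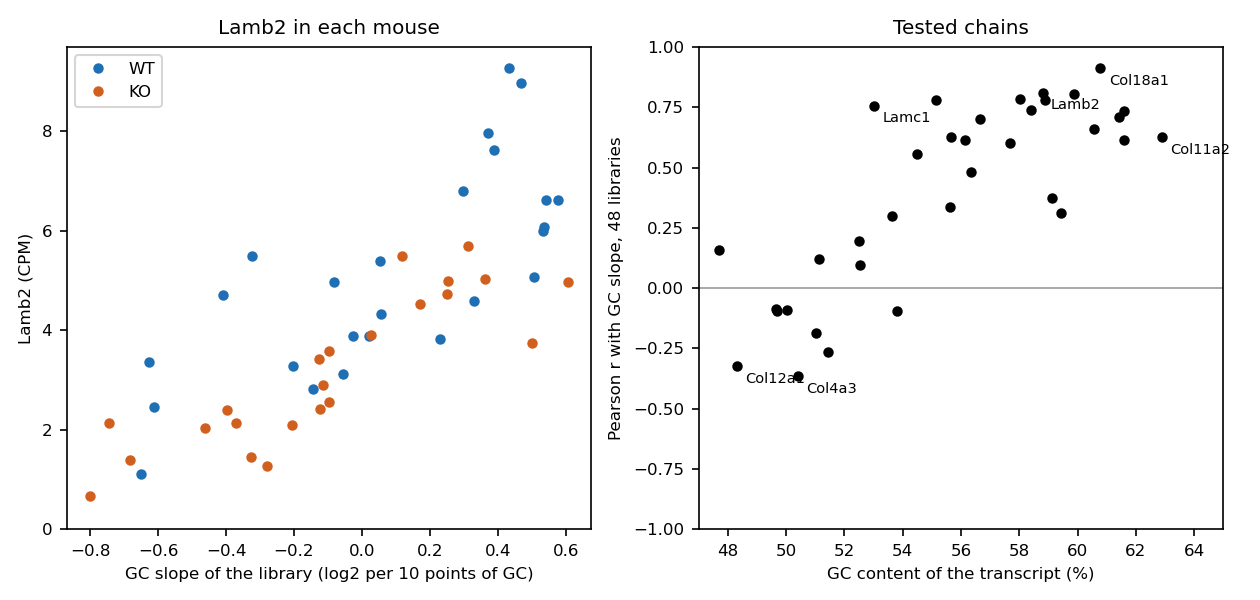
Left, Lamb2 in CPM against the GC slope of each of the 48 libraries (blue, WT; orange, KO). Right, for the tested chains (all but 1 of the 36), Pearson r with the GC slope against the GC content of the longest transcript. Lamb2 rises with the slope (r = 0.81), and the chains richer in GC have the higher r, which the definition of the slope tends to give.

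The question of the design was whether loss of Bmal1 in adipocytes changes the liver. Averaged over the 6 times, 1 chain passed the threshold of 0.05 on the adjusted p, Lamb2, and it was lower in KO. Over all 13646 genes tested 1.4% passed, 0.777% of all as lower and 0.623% as higher. Lamb2 encodes laminin beta 2, the beta chain of laminins at vessel and neuromuscular basement membranes. In WT livers its level ran from 1.10 to 9.26 CPM (median 4.97, n = 25), and in KO livers from 0.657 to 5.68 (median 2.89, n = 23).

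By time, the Lamb2 libraries separated at ZT4 and ZT12. At ZT4 the 4 WT libraries held 5.98, 4.59, 3.89 and 3.87 CPM and the 4 KO libraries 3.74, 1.45, 0.657 and 1.39. At ZT12 the WT libraries held 5.49, 4.72, 6.08 and 5.08 CPM and the KO libraries 2.03, 3.58, 2.10 and 2.55. At both of these times every KO library lay below every WT library, and at the other times the genotypes overlapped. The mean was lower in KO at 6 of 6 times, with 5.1 ± 2.04 CPM in WT (SD, n = 25) and 3.19 ± 1.5 in KO (n = 23). On the log2 scale KO minus WT came to -0.66 (SE 0.16), with an adjusted p = 0.0214 from edgeR's quasi-likelihood test, adjusted after Benjamini and Hochberg over all genes tested. With the GC slope as a covariate it was -0.47 (adjusted p = 0.00691). With body weight as a covariate it was -0.76 and no longer passed (adjusted p = 0.0737), and KO mice weighed 24.2 ± 3.57 g against 21.8 ± 1.997 g in WT (SD, n = 23 and 25).

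No other chain passed, and most lay below 0. Of 36 chains 27 had a log2 difference below 0, with a median of -0.24, while 51.1% of all tested genes were below 0 with a median of -0.0047. An unadjusted p under 0.05 was reached by 13 of the 36 (17.1% of all tested genes). With the GC slope as a covariate the median of the chains was -0.067 and 23 were below 0, and 3 chains passed (Lamb2, Col4a1 and Col4a2), where 1.54% of all genes did.

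The 3 type VI chains, which join into 1 trimer, all lay below 0. Col6a1 held 8.96 ± 4.06 CPM in WT and 5.88 ± 2.33 in KO, was lower at 6 of 6 times and came close to the threshold (log2 difference -0.59, SE 0.16, adjusted p = 0.0556, edgeR). Col6a2 had a difference of -0.66 (SE 0.24, adjusted p = 0.159) and Col6a3 of -0.42 (SE 0.13, adjusted p = 0.103). DESeq2 called Col6a1 too (-0.60, adjusted p = 0.0178). Col6a1 was at -0.42 (adjusted p = 0.0757, edgeR), Col6a2 at -0.31 (adjusted p = 0.409) and Col6a3 at -0.31 (adjusted p = 0.215) with the GC slope as a covariate.

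Among the 6 type IV chains, 4 lay above 0 and Col4a4 (-0.47) and Col4a6 (-0.077) below it. Col4a1 held 13.3 ± 6.15 CPM in WT and 17.3 ± 6.58 in KO (log2 difference 0.41, SE 0.14, adjusted p = 0.111, edgeR) and was higher at 5 of 6 times. Col4a2 held 7.24 ± 3.20 and 9.86 ± 4.46 CPM (0.45, SE 0.17, adjusted p = 0.175) and was higher at 6 of 6 times. Neither passed as fitted, and both passed with the GC slope as a covariate, at 0.61 (adjusted p = 0.000194) and 0.68 (adjusted p = 0.000286). Col4a5, the chain of the kidney and lung type IV network, had a difference of 0.30 (SE 0.18, adjusted p = 0.39). At ZT0 the WT libraries held 19.4, 15.1, 10.7 and 10.9 CPM of Col4a1 and the KO libraries 23.4, 19.3, 23.3 and 25.8. At ZT8 the WT libraries held 5.81, 8.23, 7.18 and 7.11 CPM and the KO libraries 12.5, 13.8, 14.9 and 7.43. At each of these times 3 KO libraries lay above all WT libraries and 1 lay within their range.

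Among the fibrillar chains 8 of 9 lay below 0 without a call, with Col1a1 at -0.25 (SE 0.42), Col1a2 at -0.29 (SE 0.18), Col3a1 at -0.039 (SE 0.17), Col5a1 at -0.28 (SE 0.17), Col5a2 at 0.049 (SE 0.197) and Col5a3 at -0.45 (SE 0.22). Col1a1 turned to 0.40 with the GC slope as a covariate. Of the fibril-associated collagens, Col14a1 was lower at 6 of 6 times (-0.32, SE 0.14, adjusted p = 0.218) and Col16a1 likewise (-0.47, SE 0.15, adjusted p = 0.103), while Col12a1, found in dense fibrous tissue, was at 0.22 (SE 0.14). Of the laminin alpha chains Lama5, a chain of vessel and epithelial basement membranes, was lower at 6 of 6 times without passing (-0.65, SE 0.21, adjusted p = 0.103; -0.29 with the GC slope as a covariate), and Lama4, the alpha chain of vessel laminins, was at -0.0011 (SE 0.11). Lamb1 and Lamc1, partners in the most widespread laminins, were at -0.198 (SE 0.10) and -0.18 (SE 0.10). Fitted with that covariate, Col14a1 was at -0.41 (adjusted p = 0.0866) and Col16a1 at -0.29 (adjusted p = 0.229, edgeR).

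**Figure D3:**
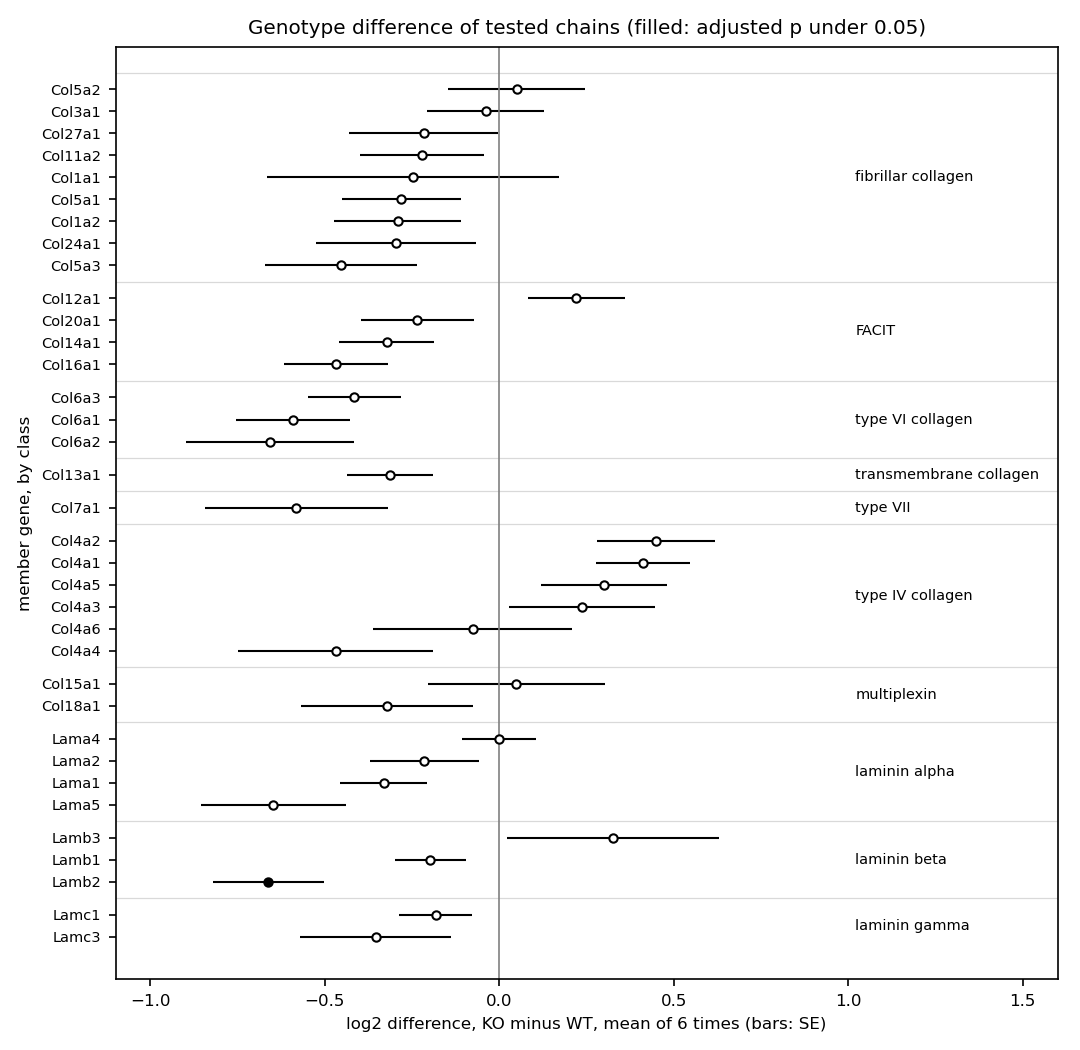
Log2 difference, KO minus WT averaged over 6 times, of the tested chains (all but 1 of the 36) by class, with bars of 1 SE. Lamb2 at -0.66 is the filled point (adjusted p under 0.05). The 3 type VI chains lie below 0, and Col4a1 and Col4a2 lie above it.

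At single times no chain passed. All genes tested passed in 0.0147% at ZT0, 0.0366% at ZT4, 0% at ZT8 and ZT12, 0.022% at ZT16 and 0% at ZT20. An unadjusted p under 0.05 (edgeR) was reached by 8 chains at ZT4 (23.3% of all genes), by 3 chains each at ZT0 (5.53%), ZT16 (6.65%) and ZT12 (4.4%) and by 2 chains each at ZT20 (1.84%) and ZT8 (1.82%), and DESeq2 called 1 chain, Lamb2 at ZT4, and 0 at the other times. At ZT4, 29 of 36 chains were below 0 with a median of -0.56, where 50.3% of all genes were below 0. Below 0 were also 27 chains at ZT12 (51.9% of all genes), 25 each at ZT20 (52%) and ZT16 (49.3%), 18 at ZT8 (49.1%) and 14 at ZT0 (51.2%). At ZT4 the smallest p was that of Lamb2 (-1.33, SE 0.40, adjusted p = 0.111), followed by Lamc1 (-0.82, SE 0.26, adjusted p = 0.122) and Lama5 (-1.42, SE 0.52, adjusted p = 0.136, edgeR). Without replicate 1 of KO at ZT4, whose Col18a1 level of 1035 CPM compares with 295, 182 and 200 in the other 3, 11 of 36 chains passed at ZT4, where 24.6% of all genes did, and 5 passed over all times, where 3.55% did. At ZT4 the KO libraries lay wholly below the WT libraries for 6 chains, Col27a1, Col6a3, Lama4, Lama5, Lamb2 and Lamc1, and for 3.98% of all genes. At ZT12 they did so for 1 chain, Lamb2, and for 1.9% of all genes.

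The GC slopes also differed between the genotypes at ZT4. They were 0.53, 0.33, 0.021 and -0.027 in the WT libraries and 0.50, -0.33, -0.80 and -0.68 in the KO libraries, so that 3 of the 4 KO libraries lay below all WT libraries. The KO library with the slope of 0.50 is replicate 1, named above. At ZT4, 24 of the 36 chains were below 0 with the GC slope as a covariate, with a median of -0.47 (49.2% of all genes below 0). No chain passed by edgeR in that fit, and 0 of 13646 genes did. An unadjusted p under 0.05 was reached by 8 chains. The share of all genes at that level was not counted, so the 8 cannot be set against it. Lamb2 was then at -0.86 (adjusted p = 0.237, edgeR), Lamc1 at -0.48 (adjusted p = 0.359) and Lama5 at -0.70 (adjusted p = 0.385).

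The interaction of genotype and time gave 0 calls by edgeR and by DESeq2 (0 at an unadjusted p under 0.05 against 3.28% of all genes, smallest adjusted p = 0.953, 0.00733% of all genes called).

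Many chains passed the test for a 24 h rhythm, in mice whose age and weight also differed between times. Mean age was 64.5 weeks at ZT0 and 42.1 at ZT20 in both genotypes. Mean weight at these times was 23.2 and 20.35 g in WT and 26.4 and 20.15 g in KO. The rhythms, shared or within a genotype, were not fitted with body weight, and its part in them was not tested. A cosine shared by both genotypes passed for 25 of 36 chains, while 43.7% of all tested genes passed (28 chains and 53% of all genes at an unadjusted p under 0.05). The peaks gathered in the hours of the dark phase of the earlier light cycle: 22 of the 25 peaked between ZT12 and ZT24 (88%), and 18 of them between ZT18 and ZT24, against 52.8% and 35% of the 5962 rhythmic genes. The amplitude, the distance from mean to peak on the log2 scale, had a median of 0.39 in the 36 chains and 0.22 in all tested genes. With the GC slope as a covariate 21 chains passed, 19 of them among the 25, and 17 of the 21 peaked between ZT12 and ZT24 (81%). In the same fit 47% of all genes passed, and 49.7% of these peaked between ZT12 and ZT24. Col16a1, Col1a1, Col3a1, Col4a2, Col4a3 and Lamc3 no longer passed in that fit, while Lama5 and Col15a1 newly passed. With age as a covariate 27 chains passed, 24 of them with peaks between ZT12 and ZT24, where 6283 of 13646 genes passed.

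The smallest p belonged to Col13a1, a transmembrane collagen of cell adhesion sites. In WT it held 3.31, 6.36, 5.91 and 6.48 CPM at ZT0, 2.98, 2.04, 2.47 and 2.44 at ZT8 and 5.84, 7.03, 7.41 and 4.94 at ZT20. In KO it held 2.92, 2.59, 3.05 and 4.37 CPM at ZT0, 4.05, 1.5, 2.34 and 2.18 at ZT8 and 9.16, 4.96, 4.94 and 5.22 at ZT20. In both genotypes every ZT20 library lay above every ZT8 library. The amplitude was 0.63 (SE 0.082) with a peak at ZT18.5 (adjusted p = 2.81e-07, edgeR), and it was 0.60 with the GC slope as a covariate.

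Basement membrane chains followed with peaks late at night. Col4a1 had an amplitude of 0.52 (SE 0.097, peak ZT20.0, adjusted p = 7.05e-05, edgeR) and Col4a2 of 0.39 (SE 0.12, peak ZT20.7, adjusted p = 0.0174). Lamb2 peaked at ZT18.8 with an amplitude of 0.55 (SE 0.12, adjusted p = 0.000636), Lamb1 at ZT19.0 (0.32, SE 0.072), Lamc1 at ZT20.2 (0.35, SE 0.078), Lama2, the merosin chain, at ZT20.4 (0.44, SE 0.10), Lama4 at ZT18.8 (0.27, SE 0.080) and Lamc3 at ZT20.2 (0.49, SE 0.15). Lama1, best known from early embryos, peaked earlier, at ZT16.9 (0.25, SE 0.083). Lamb3 and Lama5 did not pass (adjusted p = 0.368 and 0.795), though Lama5 did with the GC slope as a covariate (amplitude 0.27, peak ZT7.6, adjusted p = 0.0444, edgeR). With the GC slope as a covariate the amplitude of Lamb2 was 0.37 and that of Col4a1 was 0.36, and both still passed.

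Matrix collagens peaked in the same hours. Col6a1, Col6a2 and Col6a3 peaked at ZT18.3, ZT19.6 and ZT19.4 with amplitudes of 0.38 (SE 0.12), 0.63 (SE 0.17) and 0.38 (SE 0.096). Col11a2, a minor fibrillar chain, peaked at ZT17.7 (0.61, SE 0.11, adjusted p = 8.5e-05), Col14a1 at ZT18.5 (0.42, SE 0.096), Col16a1 at ZT19.0 (0.33, SE 0.097), Col7a1 at ZT18.4 (0.54, SE 0.17), Col3a1 at ZT18.4 (0.296, SE 0.12) and Col24a1 at ZT16.1 (0.299, SE 0.12). The 2 type I chains peaked at ZT20.9 (Col1a1, 0.83, SE 0.29) and ZT18.7 (Col1a2, 0.40, SE 0.13). The Col1a1 amplitude was the largest of the 25 and rested on low counts. With the GC slope as a covariate it was 0.30 and no longer passed (adjusted p = 0.288).

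Some chains kept other hours. Col27a1 peaked at ZT13.9 with an amplitude of 0.70 (SE 0.16, adjusted p = 0.000645, edgeR). Its 5 WT libraries at ZT16 held 69.2, 16.6, 46.3, 18.8 and 103 CPM, and its 4 WT libraries at ZT0 held 26.5, 9.29, 8.59 and 13.0, so that the 2 times overlapped. Col12a1 peaked by day, at ZT5.1 (0.42, SE 0.090, adjusted p = 0.000659, edgeR). Its KO libraries held 3.51, 5.80, 5.51 and 6.11 CPM at ZT4 and 2.1, 2.93, 3.32 and 3.53 at ZT20, so only the lowest at ZT4 overlapped with ZT20. Its WT libraries held 1.84, 3.52, 6.58 and 3.66 CPM at ZT4 and 2.26, 3.36, 3.38 and 1.43 at ZT20 and overlapped, and the rhythm fitted within WT did not pass. Col5a3 at ZT2.4 (0.42, SE 0.17) and Col4a3, a chain of the kidney type IV network, at ZT10.4 (0.38, SE 0.12) were the other chains that passed and peaked outside the night.

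**Figure D4:**
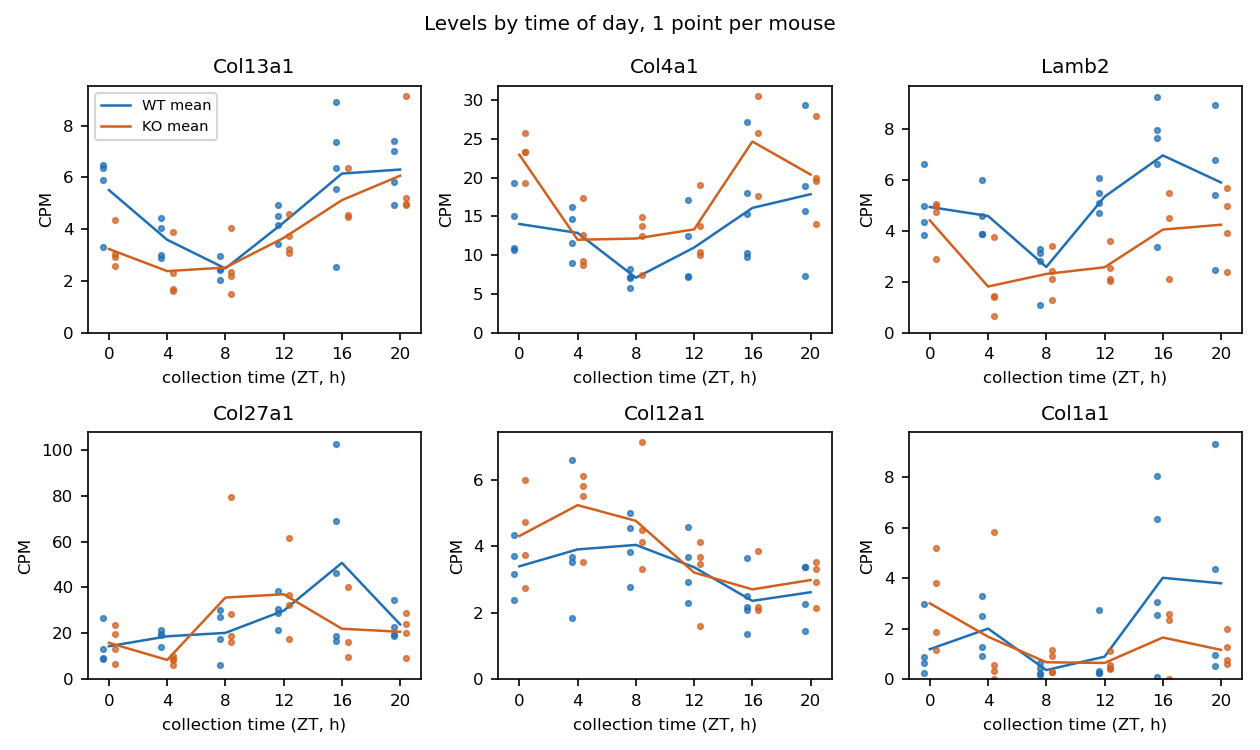
CPM of 6 chains by collection time, with 1 point per mouse and lines through the group means (blue, WT; orange, KO). Col13a1 and Col4a1 have their highest group means at ZT16 or ZT20, Col27a1 at ZT16 in WT and ZT12 in KO, and Col12a1 at ZT8 in WT and ZT4 in KO.

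**Figure D5:**
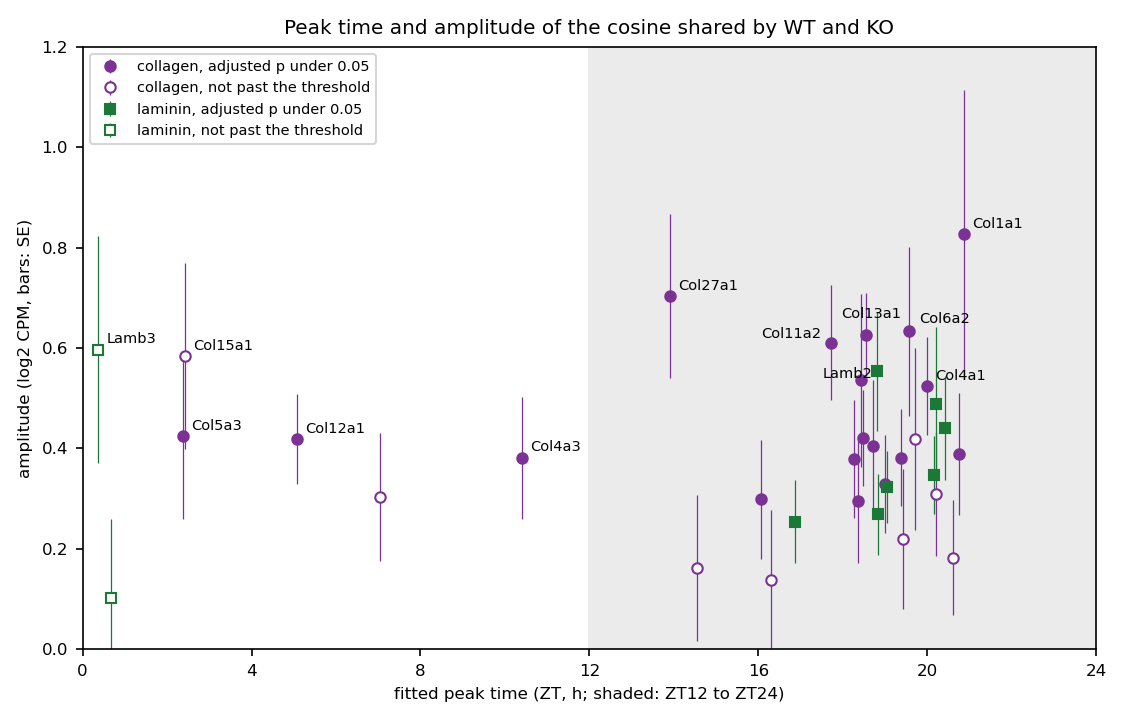
Amplitude (log2 CPM, bars of 1 SE) against fitted peak time for the tested chains (all but 1 of the 36; circles, collagens; squares, laminins; filled, adjusted p under 0.05). Of the 25 filled points, 22 lie in the shaded span from ZT12 to ZT24.

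Fitted within each genotype, the rhythm passed for 8 chains in WT (16.3% of all genes) and 13 in KO (17% of all genes). It passed, with the GC slope as a covariate, for 11 chains in WT (29.7% of all genes) and 10 in KO (21.3% of all genes). An unadjusted p under 0.05 was reached by 17 chains in WT (31.5% of all genes) and 19 in KO (34.3%). Col13a1, Col11a2, Col4a1 and Col27a1 passed in both. Lamb1, Col1a2, Col6a3 and Col16a1 passed in WT, and Lamc1, Col12a1, Lamb2, Lama4, Lama2, Col14a1, Lamc3, Col6a2 and Col7a1 in KO. The difference in rhythm between genotypes, tested directly, passed for 0 chains by edgeR and by DESeq2 (0 at an unadjusted p under 0.05 against 2.66% of all genes, smallest adjusted p = 1, 0.00733% of all genes called). Col13a1 had amplitudes of 0.60 in WT (SE 0.11, peak ZT19.4) and 0.70 in KO (SE 0.12, peak ZT17.8).

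No chain passed on age or body weight within groups. The age slope passed for 0 of 36 chains (edgeR and DESeq2, edgeR 1 at an unadjusted p under 0.05 against 6.05% of all genes, 0.0366% of all genes called, 0.0293% as higher and 0.00733% as lower), and 9 slopes were below 0 (48.9% of all genes). The smallest p was that of Col6a3, at 0.0996 log2 units per 10 weeks (SE 0.043, adjusted p = 0.775). The slope on body weight passed for 0 of 36 (edgeR and DESeq2, edgeR 4 at an unadjusted p under 0.05 against 6.57% of all genes, 0% of all genes called), and 6 slopes were below 0 (49.5% of all genes). Col27a1 at 0.20 log2 units per g (SE 0.050, adjusted p = 0.267) and Lamb3 at 0.22 (SE 0.072, adjusted p = 0.533) had the smallest p.

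Chains that assemble into 1 trimer were then compared across mice, as the correlation of their log2 levels after removal of group means (48 mice, 14 coefficients adjusted together). Col1a1 and Col1a2 moved together (Pearson r = 0.84, Spearman rho = 0.76, raw p = 1e-05 for both, permutation test, and r = 0.78 without the 2 farthest mice). So did Col4a1 with Col4a2 (r = 0.83, rho = 0.83, raw p = 1e-05 for both, permutation test, and r = 0.78 without the 2) and Col6a1 with Col6a2 (r = 0.85, rho = 0.80, raw p = 1e-05 for both, permutation test, and r = 0.83 without the 2). Col6a1 with Col6a3 gave r = 0.65 and rho = 0.61 (raw p = 1e-05 for both, permutation test, and r = 0.67 without the 2). The raw value of 1e-05 is the smallest that the permutations could give. Col4a3 with Col4a4 gave r = 0.39 and rho = 0.31 (adjusted p = 0.00926 and 0.0442, permutation test; r = 0.34 without the 2). For Col5a1 with Col5a2 (r = 0.000203, rho = 0.085) and Lamb1 with Lamc1 (r = -0.038, rho = -0.023) no relation passed (adjusted p of at least 0.72, permutation test). Over all 630 pairs of the 36 chains the median r was 0.20. Pairs that share no trimer reached the same values, with Lamb2 and Col5a1 the highest of all (r = 0.86), Col6a2 and Col1a1 at 0.86 and Col18a1 and Col1a1 at 0.84, so a high r was not particular to partners. With the GC slope removed, r was 0.74 for the type I pair, 0.57 for Col4a1 and Col4a2 and 0.72 for Col6a1 and Col6a2. It was 0.52 for Col6a1 and Col6a3, with a median of 0.16 over all pairs. For the named pairs that share no trimer it was 0.65 (Lamb2 and Col5a1), 0.66 (Col6a2 and Col1a1) and 0.39 (Col18a1 and Col1a1).

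The type I pair was uneven in level. Per length, Col1a1 stood at 0.167 of Col1a2 (median of 46 mice, range 0.0237 to 0.516), Col4a1 at 1.69 of Col4a2 (0.971 to 3.53, 48 mice) and Col6a1 at 4.26 of Col6a2 (2.48 to 12.4).

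Genes that act on the chains were counted from lists. Over all tested genes 1.4% passed between genotypes, 51.1% were below 0 and 43.7% had a shared rhythm. Of the rhythmic genes 52.8% peaked between ZT12 and ZT24. Of 15 tested genes that modify, fold and export collagen, 0 passed between genotypes (edgeR, 12 below 0) and 9 had a shared rhythm, all with peaks between ZT12 and ZT24. They included the prolyl hydroxylase subunit P4ha1 (amplitude 0.79, SE 0.089, peak ZT16.0, adjusted p = 3.07e-09), the collagen chaperone Serpinh1 (0.56, SE 0.086, peak ZT17.5), the prolyl 3-hydroxylase Lepre1 (0.65, SE 0.10, peak ZT21.1) and P4ha2 (0.68, SE 0.12, peak ZT18.6). Of 11 genes of procollagen processing and cross-linking, 1 rose in KO, the lysyl oxidase Lox, from 0.245 ± 0.154 to 0.614 ± 0.424 CPM (log2 difference 1.34, SE 0.27, adjusted p = 0.00452), and 6 were rhythmic, with Loxl4 at an amplitude of 1.74 (SE 0.18, peak ZT23.8). The Lox values rested on low counts in both genotypes.

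Of 9 basement membrane partners, Pxdn, the peroxidase that cross-links type IV collagen, rose in KO (8.78 ± 2.04 to 10.7 ± 2.71 CPM, 0.30, SE 0.075, adjusted p = 0.0266), and Fbln1 fell (0.685 ± 0.511 to 0.339 ± 0.195 CPM, -0.91, SE 0.24, adjusted p = 0.0367). The Fbln1 values also rested on low counts. Of these 9, 6 were rhythmic, all peaking at night, with Nid2 and Nid1, the nidogens that bridge laminin and type IV collagen, at ZT23.8 and ZT21.9. Of 13 receptors 0 passed between genotypes (edgeR) and 7 were rhythmic (43.7% of all genes), with the integrin Itga10 leading (0.58, SE 0.095, peak ZT16.9). Of 11 matrix proteases and inhibitors, Timp3, an inhibitor of metalloproteinases, fell from 37.9 ± 12.5 to 18.3 ± 7.62 CPM (-1.04, SE 0.12, adjusted p = 9.28e-07), and 8 were rhythmic. Of 19 genes of TGF-beta signalling, a main inducer of collagen genes, 17 were below 0 and 2 passed as lower, among them Ltbp1 (-0.64, SE 0.15, adjusted p = 0.0158). Ctgf had the smallest rhythm p of that list (0.89, SE 0.13, peak ZT15.0).

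Markers of the cells that can make these chains were counted in the same fits. Of 10 stellate cell markers all 10 were below 0 and 1 passed, Cygb (9.01 ± 4.01 to 4.85 ± 2.24 CPM, -0.86, SE 0.18, adjusted p = 0.00781), and of 7 portal fibroblast markers all 7 were below 0 and 1 passed, Fbln2 (-0.72, SE 0.18, adjusted p = 0.0357). Of 8 sinusoidal endothelial markers 4 were below 0 and 0 passed, and of 5 vascular ones 4 were below 0 and 0 passed (edgeR). Of 6 hepatocyte markers 5 were below 0, with a median of -0.154, against -0.173 for the stellate markers. All 4 mesothelium markers were below 0, with a median of -0.387, and 0 of either list passed (edgeR). Over all tested genes 51.1% were below 0 and 1.4% passed. Summed over the list, the stellate markers ran from 168 to 830 CPM in WT and from 192 to 797 in KO, and the sinusoidal ones from 158 to 326 and from 150 to 364. A shared rhythm passed for 6 of 10 stellate, 3 of 7 portal fibroblast, 7 of 8 sinusoidal and 5 of 5 vascular endothelial markers, all with peaks between ZT12 and ZT24. Over all tested genes 43.7% had a shared rhythm, and 52.8% of these peaked in those hours. Of the 6 hepatocyte markers 2 were rhythmic, 1 of these with a peak in those hours, and of the 4 mesothelium markers 0. Of 5 cholangiocyte markers 3 were below 0 and 0 passed between genotypes, and 4 were rhythmic, 3 of these with peaks between ZT12 and ZT24. Of 4 myofibroblast markers 2 were below 0 and 0 passed (edgeR), and 3 were rhythmic, all at night. The summed sinusoidal markers averaged 246 ± 52.6 CPM at ZT0, 199 ± 39.2 at ZT8, 277 ± 70.1 at ZT16 and 289 ± 22.5 at ZT20 (SD, n = 8), while the summed laminin chains averaged 71.6 ± 17.5, 44.5 ± 14.3, 62.4 ± 20.4 and 58.4 ± 10.4. Both sums were lower at ZT8 than at the other 3 of these times. The highest laminin sum, at ZT0, came with the beta chains. These summed to 35.3 ± 13.7 CPM at ZT0, 26.4 ± 14.3 at ZT16 and 23.95 ± 5.10 at ZT20. The alpha chains summed to 13.98, 14.23 and 13.19 CPM at ZT0, ZT16 and ZT20, and the gamma chains to 22.4, 21.7 and 21.2. Lamb3, a beta chain whose rhythm did not pass, ran from 7.40 to 49.6 CPM at ZT0. The time of the highest laminin sum thus does not describe the chains as a whole. The summed cholangiocyte markers averaged 108 ± 31.7 CPM at ZT8 and 72.6 ± 28.3 at ZT20. Most of that sum was Spp1, with a mean count of 944 per library and Sox9 next at 51.3, so it does not describe the list as a whole. The part of cell numbers in the chains' differences was not tested.

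All 6 hepatocyte, 10 stellate and 8 sinusoidal markers were read in every library. Of 6 adipocyte markers, Lep was at 0 in 47 of 48 libraries, Retn in 41, Plin1 in 33, Cfd in 27 and Adipoq in 25, and Cidec, which liver cells also express, was read in all 48. Arntl, the deleted gene, was present in the liver of both genotypes, with medians of 37.5 CPM in WT and 33.1 in KO at ZT0 and of 1.91 and 6.12 at ZT12 (n = 4 each). Liver is not the tissue of the deletion, so this does not check the genotype labels.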

How the data were processed

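Liver RNA of 48 mice was sequenced with a stranded, poly(A)-selected TruSeq kit and 13 cycles of PCR, and libraries were built over several days, per the labels' protocols, which do not give the day of each library. Reads were handled with CASAVA and STAR 2.4.1d on build mm9, per the submitters' processing notes. The authors deposited whole-number read counts per gene. The table is named as sense-strand counts. The counting program and its annotation are not given in the sources used here. Without Alb, the deposited counts sum to 12841969 to 13009797 per library; whether depth was equalised before counting is not given in the sources used here, so these totals may not be the sequenced depth. Counts below about 10 per library limit the rarest chains and the list genes Lox and Fbln1.

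Members and gene lists were chosen with earlier results of these data known. Alb (5.66% to 14.6% of counts) entered neither the library sizes nor the tests, which was decided once its values had been seen. Genes were filtered with filterByExpr and scaled with TMM factors (0.892 to 1.11), which left 13646 genes. edgeR 4.0.16 in R 4.3.3 (quasi-likelihood test, Benjamini-Hochberg adjustment over all genes tested, threshold 0.05) was fitted to 12 groups of genotype and time, and to a cosine of 24 h for rhythms. The age and weight slopes were fitted within groups. Each library is a separate mouse by its age and weight labels. Named genes were every member past the threshold, the highest member of each class, the 3 smallest p in each comparison, both chains of the trimer pairs, and for each other list up to 4 genes past the threshold, taken by p, and genes named beyond these were chosen after their values were seen. GC content and exon lengths came from GENCODE M21 (37 of 37 members matched). Correlations of the chains used log2 of CPM plus 0.5, with 100000 permutations. Amplitudes, the GC slope and the correlations between libraries of the same number used log2 CPM with a prior count of 2. Of 146 other list entries 140 were found by symbol, 5 by another symbol, and 1 was not found. The scripts were tested on simulated data. Alternatives were DESeq2 1.42.0, other scaling, no filter, covariates, and each library left out. The values of 1 member and of 1 gene of another list are not reported here, and the counts include them.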

Additional observations from a re-analysis of the deposited data

Results flagged for a closer look

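In 12 of 110 combinations of an item and a group, 1 library lay far from the others of its group. Chance alone would give about 1 in 20 for independent items. The items here share libraries, and the summed laminin level contains Lamb2 and Lamb3, so the 12 cannot be measured against that rate. Replicate 1 of KO at ZT4 stood above its group for Col6a1 (6.78 CPM, the next 2.9), Col1a1 (5.85 CPM, the next 0.563) and Col18a1 (1040 CPM, the next 295). Col18a1 also had 1160 CPM in replicate 1 of WT at ZT0, where the next library held 449. Lamb2 had 2.89 CPM in replicate 2 of KO at ZT0, where the next held 4.72, and Col13a1 had 9.16 CPM in replicate 1 of KO at ZT20, where the next held 5.22. Col1a1 had 2.75 CPM in replicate 3 of WT at ZT12, where the next held 0.333. Lamb3 had 4.68 CPM in replicate 1 of WT at ZT4, below the next at 12.3, and 44 CPM in replicate 2 of KO at ZT8, above the next at 11.4. The summed laminin level was low in replicate 2 of WT at ZT8 (27.5 CPM, the next 43.9) and in replicate 2 of WT at ZT20 (40.4 CPM, the next 65), and high in replicate 5 of WT at ZT16 (109 CPM, the next 66).

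Some chains outside the set still had reads. The highest count in a library was 10 for Col23a1, 12 for Col25a1, 10 for Col6a5, 13 for Col8a1, 11 for Col8a2 and 14 for Col9a3.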

How the results depend on the processing

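Over all times the count of 1 chain became 2 by DESeq2, 0 with body weight as a covariate, 3 with the GC slope, 13 with the first principal component of within-group deviations, and 2 without the 7 libraries whose GC slope lay beyond 0.6, a choice made after seeing the data, as was leaving out ZT20. Without the 7 libraries 241 of 13805 genes passed over all times. At ZT4 the count was 1 by DESeq2 (192 of 13646 genes) and 14 with the component (4233 of 13646). The component also gave 3 at ZT12 (190 of 13646 genes), 2 at ZT16 (904) and 4 for the interaction (1928). The rhythm in WT (8) had 5 calls with no filter (1914 of 22353 genes), 17 with the component, 14 without the 7 libraries and 5 without ZT20 (2092 of 13545 genes). That in KO (13) had 7 with no filter (1821 of 22353 genes) and 6 without ZT20. The shared rhythm (25) ran from 21 with the GC slope (6416 of 13646 genes) to 28 with the component (8284 of 13646 genes). With each library left out the count ran from 1 to 5 over all times, 0 to 11 at ZT4 (11 without KO ZT4 replicate 1, where 24.6% of all genes passed), 23 to 27 for the shared rhythm, 3 (without WT ZT20 replicate 4) to 14 (without WT ZT20 replicate 2) in WT and 7 to 14 in KO, and stayed 0 elsewhere. For the rhythms, the shares of all genes with each library left out are not given here. The swings in their counts are therefore not read as a trait of the chains. Lamb2 over all times ran from -0.77 to -0.61 and passed each time (adjusted p 0.00281 to 0.0491, edgeR).

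Some differences over all times changed sign, none past the threshold. Col18a1 was at 0.10 and Col1a1 at 0.40 with the GC slope, and Col1a1 at 0.044 without ZT20. With body weight Col5a2 was at -0.17, Lamb3 at -0.21 and Lama4 at 0.015, and Lamb3 at ZT8 went from 1.53 to -0.16. Lama4 was at 0.0020 with no filter, 0.0017 with the component and 0.019 without the 7 libraries. With each library left out Col1a1 ran from -0.67 to 0.033, Col5a2 from -0.089 to 0.13 and Lama4 from -0.042 to 0.041. The cause of these changes was not tested. With the replicate block 1 chain passed over all times, Lamb2 (-0.66, adjusted p = 0.0412, edgeR), and no chain passed in the other comparisons fitted with it; this covers the difference in rhythm and, added after seeing the data, the age and body weight slopes, where Col6a2 turned to -0.22 and Col6a3 to -0.022 per 10 weeks. The other rhythms could not be fitted with the block, which holds the time. Of 23 pairs with the same number 14 correlated above 0.1, and 12 of 23 KO libraries correlated best with the WT library of their number. Over all genes the count of 191 was 356 by DESeq2, 122 with no filter, 127 with the block, 38 with body weight and 2890 with the component, and at ZT4 the count of 5 was 192 by DESeq2 and 4233 with the component. The rhythm in WT passed for 2228 genes, and for 4053 with the GC slope, 4668 with the component and 3671 without the 7 libraries, and that in KO for 2322, and for 5656 with the component and 1140 without ZT20.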
